A study of Mus musculus with 53 samples.

Results

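The genes described here are 8 mouse genes of intestinal bile acid handling and of the bile acid receptor FXR: Slc10a2, Fabp6, Slc51a, Slc51b, Nr1h4, Gpbar1, Nr0b2 and Fgf15. They were taken by symbol from a table of raw read counts for 55421 genes, and each of the 8 symbols had 1 row. Their values were followed through all 53 whole-tissue RNA-seq libraries, 29 of colon and 24 of small intestine, in 11 groups.

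All mice carried VillinCreER, a tamoxifen-inducible Cre expressed in the intestinal epithelium, and adults were induced with tamoxifen at 6 to 12 weeks of age. WT mice carried VillinCreER alone. A mice were Alk5 fl/fl, which lose the type I TGF-beta receptor (gene Tgfbr1) in the epithelium, and BA mice were Braf V600E/+ Alk5 fl/fl, which also switch on oncogenic Braf there. Colon tissue taken 30 days after induction (d30) came from WT (n = 4), A (n = 4), A given sulindac (n = 4), BA (n = 5) and BA given antibiotics mice (n = 5). Sulindac, an anti-inflammatory drug that injures the proximal colon, was given at 0.4 g per L for 14 days. The antibiotic mixture, which mice drank from the day that followed tamoxifen, held ampicillin, neomycin and metronidazole at 1 g per L each and vancomycin at 500 mg per L. Primary BA colon tumours (n = 4) were set against WT colon (n = 3). All of these mice, and the small intestine of Apcfl/fl (n = 10) and WT mice (n = 6) at day 4 after induction, were on a mixed C57BL/6J background (N6). Primary small intestinal tumours of Apcfl/+ mice (n = 5) and WT small intestine (n = 3) came from inbred C57BL6/J mice (N9). Cre acts only in the epithelium, so each library also held unrecombined stroma, muscle and immune cells, and sex, cage and processing day are not stated for single libraries.

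Bile acids are taken up from the gut lumen by the sodium-dependent transporter of the apical membrane (Slc10a2), carried through the cytosol by the ileal bile acid binding protein (Fabp6) and released across the basolateral membrane by the paired organic solute transporter subunits (Slc51a and Slc51b). Inside the cell they activate the nuclear receptor FXR (Nr1h4), which in ileal enterocytes induces Fabp6, both Slc51 genes, the repressor SHP (Nr0b2) and the hormone Fgf15, a signal to the liver to make less bile acid. The membrane receptor TGR5 (Gpbar1) senses bile acids outside FXR, in enteroendocrine cells and macrophages among others. Reabsorption is best known from the ileum, and in the colon the gut bacteria convert what escapes it into secondary bile acids.

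Promoters from 250 bases before to 50 after the start of the gene are shown for the uptake gene, the binding protein and the paired exporter genes, since the 4 are known as bile acid transport genes yet had different levels and moved differently in the groups below. They are RefSeq sequences of GRCm38.p6, 5′ to 3′ on the coding strand, which is the minus strand for all 4. Capitals mark matches to an FXR inverted repeat (AGGTCANTGACCT, at most 2 mismatches) or to the site of the hepatocyte nuclear factor HNF1 (GTTAATNATTAAC, at most 1 mismatch), both searched on both strands.
Fabp6, chr11:43601513-43601812: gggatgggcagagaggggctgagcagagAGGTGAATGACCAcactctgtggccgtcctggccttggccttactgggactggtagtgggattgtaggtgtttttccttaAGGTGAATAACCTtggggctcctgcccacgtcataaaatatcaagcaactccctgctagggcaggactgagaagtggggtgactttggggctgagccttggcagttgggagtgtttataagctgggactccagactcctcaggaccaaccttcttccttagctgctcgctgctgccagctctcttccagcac
Slc10a2, chr8:5105238-5105537: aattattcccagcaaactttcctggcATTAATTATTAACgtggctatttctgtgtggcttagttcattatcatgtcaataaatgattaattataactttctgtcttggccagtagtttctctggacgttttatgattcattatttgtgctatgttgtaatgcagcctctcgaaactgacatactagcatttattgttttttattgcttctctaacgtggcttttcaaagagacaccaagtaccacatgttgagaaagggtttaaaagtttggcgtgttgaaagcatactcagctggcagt
Slc51a, chr16:32487830-32488129: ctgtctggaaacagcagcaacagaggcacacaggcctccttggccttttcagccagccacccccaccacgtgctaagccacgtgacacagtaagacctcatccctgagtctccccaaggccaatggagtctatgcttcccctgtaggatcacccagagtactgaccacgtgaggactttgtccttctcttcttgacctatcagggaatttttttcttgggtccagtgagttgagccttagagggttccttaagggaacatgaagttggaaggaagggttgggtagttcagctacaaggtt
Slc51b, chr9:65422724-65423023: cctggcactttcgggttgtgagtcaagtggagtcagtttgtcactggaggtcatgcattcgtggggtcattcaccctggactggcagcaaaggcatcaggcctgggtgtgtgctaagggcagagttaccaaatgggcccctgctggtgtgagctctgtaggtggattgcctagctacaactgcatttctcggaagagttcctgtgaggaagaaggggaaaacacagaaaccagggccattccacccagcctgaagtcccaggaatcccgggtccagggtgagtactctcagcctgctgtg
The Fabp6 promoter held 2 matches to the inverted repeat, AGGTGAATGACCA 222 bases and AGGTGAATAACCT 142 bases before the start. Of all 32851 promoters in the table, 1.14% held a match this close. The Slc10a2 promoter held an HNF1 match, ATTAATTATTAAC, 224 bases before the start, which 0.207% of promoters did. No match to either lay in the windows of Slc51a, Slc51b, Nr1h4, Gpbar1 or Nr0b2, and the Fgf15 promoter was not analysed here. The Nr1h4 window (chr10:89506609-89506908) lay inside the gene, whose annotated minus-strand start is at 89533585, so the bases around that start were not searched. The annotated starts of Slc51b (65422955), Slc10a2 (5105351) and Gpbar1 (74278550) lay inside their windows, before the RefSeq start used. Fewer than 250 bases before those annotated starts were thus searched. The matches are descriptions of these letters only.

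Several libraries stood apart in ways that touch these genes. Median depth per group was between 15655851 and 21715982 reads on genes, and only the first Apcfl/fl library was shallow, with 516985. Apcfl/fl library 8 stood apart from the other deep libraries of its group, with a chi-square per gene of 230 to 343 against each of them, where no other pair in the group exceeded 105. Levels are given as normalised CPM, read counts scaled to the size of each library after TMM normalisation over all 53 libraries. A count of 3 reads at the groups' median depths corresponds to 0.138 to 0.192 CPM and is used as the floor of detection, which covers counting error only. Small intestine reads appeared in some colon libraries. Over 5 enterocyte genes (Apoa4, Apoa1, Apoc3, Fabp1 and Lct) the summed level was 1086 in BA tumour 2, 261 and 90.4 in A d30 libraries 1 and 3, 58.2 in WT colon 3 and between 0.850 and 29.6 in the other colon libraries, against group means from 6030 to 19940 in day 4 small intestine. Apcfl/+ tumour 2 went against its labelled tissue in some markers but not in all. Gata4, the transcription factor of the upper small intestine, was at 0.465 there against 69.5 to 85.2 in the other 4 tumours. Car1, the carbonic anhydrase of colonocytes, was at 167 against 0.0683 to 0.580. Onecut2, another listed marker of the upper small intestine, was at 113 or more in all 5 tumours. It was at 88.2 to 120 in WT small intestine, at most 0.412 in WT colon and at most 28.5 in BA tumours. The processed pseudogene Gm13394 exceeded 10 CPM in every d30 library of A and BA mice with or without treatment and in no WT d30 library, in 3 of 4 BA tumours and 0 of 3 WT colon libraries, and in 0 of 5 Apcfl/+ tumours and 3 of 3 WT small intestine libraries. In the d30 comparisons with WT and in the Apcfl/+ comparison, whatever this difference marks and the genotype cannot be told apart. The Y-linked gene Ddx3y exceeded 10 CPM in every d30 library, but in 3 of 4 BA tumours against 0 of 3 WT colon libraries and in 1 of 5 Apcfl/+ tumours against 3 of 3 WT small intestine libraries, so sex differed in part with those groups. Levels of the targeted genes do not check the labels, because the deletions remove part of a gene in part of the tissue: Tgfbr1 was at 42.0 to 58.2 in BA d30 and 34.8 to 65.3 in WT d30.

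Across the groups, the uptake and export genes were highest in different tissues. Slc10a2 (chr8:5083219-5105351, minus strand) was between 9.35 and 194 normalised CPM in all 29 colon libraries and between 0.586 and 8.95 in all 24 small intestine libraries, so the tissues did not overlap. Slc51a (chr16:32474504-32487879, minus) and Slc51b (chr9:65412714-65422955, minus) were highest in WT small intestine at day 4, with means of 263 ± 58.8 and 111 ± 53.3 (SD, n = 6), and reached their lowest group means in Apcfl/+ tumours for Slc51b (6.66 ± 3.72, n = 5) and in BA tumours for Slc51a (11.8 ± 2.62, n = 4). Nr1h4 (chr10:89454234-89533585, minus) spanned a narrower range than these 3, with group means from 16.1 ± 4.56 in Apcfl/fl small intestine (n = 10) to 122 ± 37.9 in WT d30 colon (n = 4). Per kilobase of exon, WT d30 colon held 53.1 normalised CPM of Nr1h4, 52.6 of Slc51b, 37.5 of Slc51a, 27.9 of Slc10a2 and 2.15 of Fabp6.

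**Figure D1:**
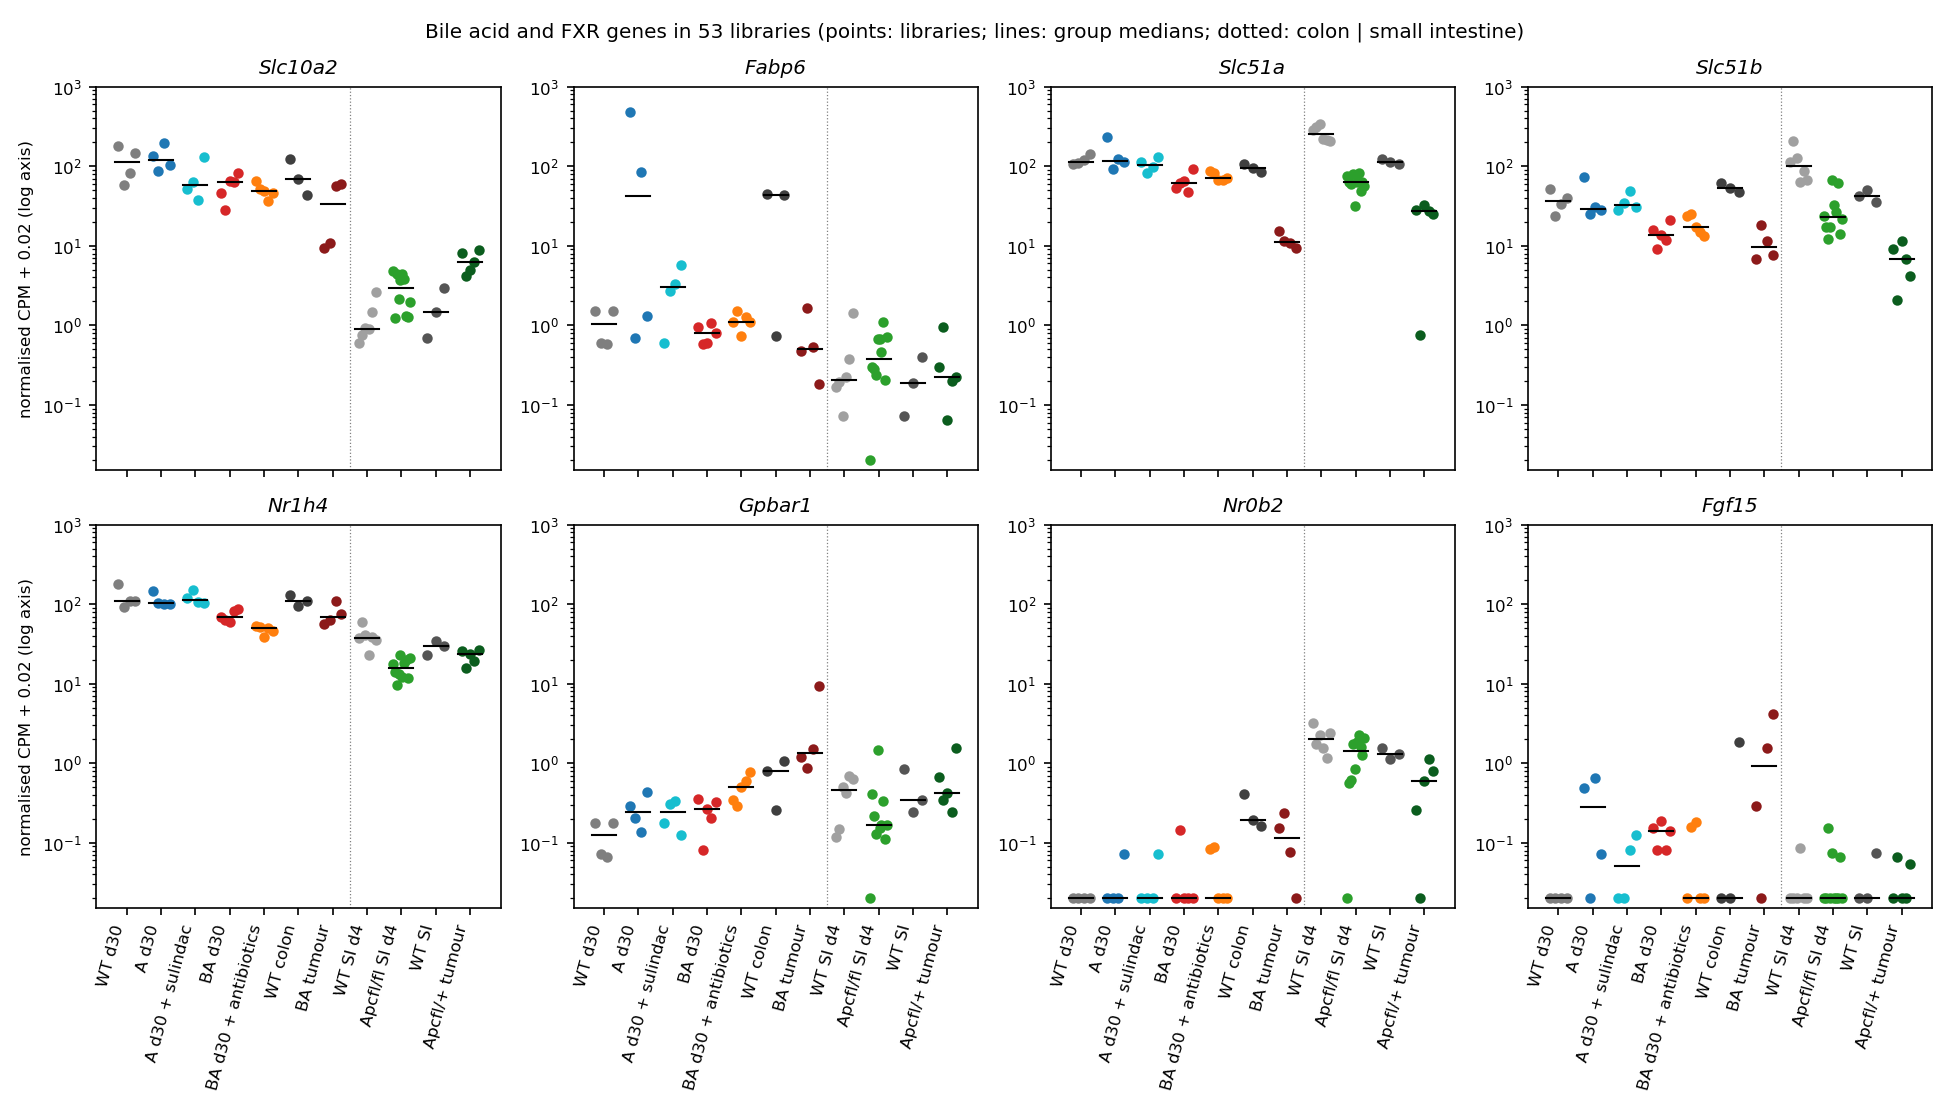
Normalised CPM of the 8 genes in all 53 libraries on a log axis (0.02 added so that zeros can be drawn), one panel per gene, points for libraries and bars for group medians. Slc10a2 lies at 9.35 or more in every colon library and at 8.95 or less in every small intestine library. Fabp6 is high only in WT colon 1 and 3 and in A d30 libraries 1 and 3.

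Ordered by group mean, most neighbouring groups overlapped. The order of Slc10a2 ran from A d30 (129 ± 47.5, n = 4), WT d30 (116 ± 55.6, n = 4), WT colon (78.4 ± 40.4, n = 3), A d30 with sulindac (70.9 ± 41.0, n = 4), BA d30 (57.1 ± 20.7, n = 5), BA d30 with antibiotics (50.01 ± 10.6, n = 5) and BA tumours (34.3 ± 28.0, n = 4) down to the small intestine groups, and only BA tumours and Apcfl/+ tumours, next to each other in it, did not overlap. For Nr1h4 the only neighbours without overlap were BA d30 and BA d30 with antibiotics, and for Slc51b they were WT small intestine at day 4 and WT colon. These levels are not tested between tissues, which differ in background, stage and processing.

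Nr0b2, Gpbar1 and Fgf15 were low in most groups, and Fabp6 was low outside WT colon and A d30. Nr0b2 (SHP, chr4:133553376-133556536, plus) stayed at 2.23 or less in Apcfl/fl small intestine, reached 3.22 in WT small intestine at day 4, and had no read in any WT d30 library and at most 2 reads in any other d30 library. Gpbar1 (TGR5, chr1:74278550-74279624, plus) exceeded 2 normalised CPM in 1 of the 53 libraries, BA tumour 4, at 9.40. Fgf15 (chr7:144896531-144900953, plus) had at most 2 reads in any small intestine library, no read in WT d30 colon, 7, 0, 11 and 1 reads in A d30 and at most 3 in any other d30 library. Fabp6 (chr11:43596049-43601540, minus) was at most 1.40 in small intestine, where the ileum is its usual site. It was at 44.7 and 43.9 in WT colon 1 and 3 and at 484 and 83.7 in A d30 libraries 1 and 3. Gata4 ran from 163 to 231 in WT small intestine at day 4 and from 88.8 to 100 in WT small intestine. The tissue sampled thus carried this marker of the upper small intestine. Of the listed markers of the lower part, Cubn (314 to 1529) and Amn (47.4 to 62.4) exceeded their WT d30 colon ranges in WT small intestine. Osr2 (13.6 to 19.1), Nts (22.7 to 24.1) and Pyy (0.702 to 1.06) did not. How much ileum the tissue held was not tested. Fabp6, Fgf15 and Nr0b2, the FXR targets other than the exporter genes, were thus low in most groups.

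At d30, BA colon held less of the transporters and of FXR than WT colon. The exporter subunit Slc51a was at 52.7, 61.9, 64.8, 47.9 and 91.8 in the 5 BA mice and at 107, 111, 119 and 143 in the 4 WT mice, and its partner Slc51b at 15.9, 9.00, 13.8, 11.7 and 20.96 against 52.0, 23.95, 33.4 and 39.8. Neither gene had a BA mouse inside the WT range. Slc51b fell 2.63-fold (log2 fold change −1.40, SE 0.24, adjusted p = 0.000579) and Slc51a 1.90-fold (−0.93, SE 0.16, adjusted p = 0.000612). All adjusted p-values are from edgeR's quasi-likelihood test with Benjamini-Hochberg adjustment over all genes tested in that comparison, 2-sided, and a gene is called when it is under 0.05. In bulk tissue, fewer cells of a type and less RNA per cell cannot be told apart. Nr1h4, encoding FXR, was at 70.0, 63.4, 59.5, 81.4 and 86.6 in BA and at 178, 93.4, 109 and 109 in WT. It fell 1.71-fold (−0.77, SE 0.17, adjusted p = 0.00286), with no overlap.

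Slc10a2, the uptake transporter, was at 46.6, 28.0, 65.4, 62.8 and 82.6 in BA and at 178, 58.1, 81.7 and 146 in WT d30. The mean was 2.05-fold lower (−1.03, SE 0.34, adjusted p = 0.0214), but the ranges overlapped, and the call was lost without WT library 1 (−0.76, adjusted p = 0.0735) or WT library 4 (−0.90, adjusted p = 0.0625). Fabp6 was between 0.555 and 1.05 in BA and between 0.564 and 1.51 in WT (−0.39, SE 0.36, adjusted p = 0.388). Gpbar1, Nr0b2 and Fgf15 had too few reads to be tested. Of the 5 genes tested, 4 were called lower and 0 higher, where 29.3% of the 17471 genes tested in this comparison were called lower and 25.8% higher. Their median log2 fold change was −0.93 and that of all genes tested −0.03.

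These falls came with a higher level of general epithelial markers. The summed level of 10 epithelial genes (Epcam, Cdh1, Krt8 and 7 others) was 26610 to 30750 in BA and 13550 to 16110 in WT, with 9 of 10 called higher. Of 7 colonocyte markers, 4 were called lower and 1 higher, and their sum was 24640 to 27950 in BA against 25160 to 31700 in WT. Car1 made up most of both sums, with means of 23330 and 22100. Means of Slc37a2 (4.48 against 1488) and Slc26a3 (477 against 1151) were lower in BA, and that of Ceacam20 was higher (331 against 126). Of 6 stroma and muscle genes, 4 were called lower, with sums of 1395 to 3412 against 4254 to 4922. None of these lists had a marker at 0 throughout a group, and the part of these differences in the falls of the 4 genes was not tested.

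**Figure D2:**
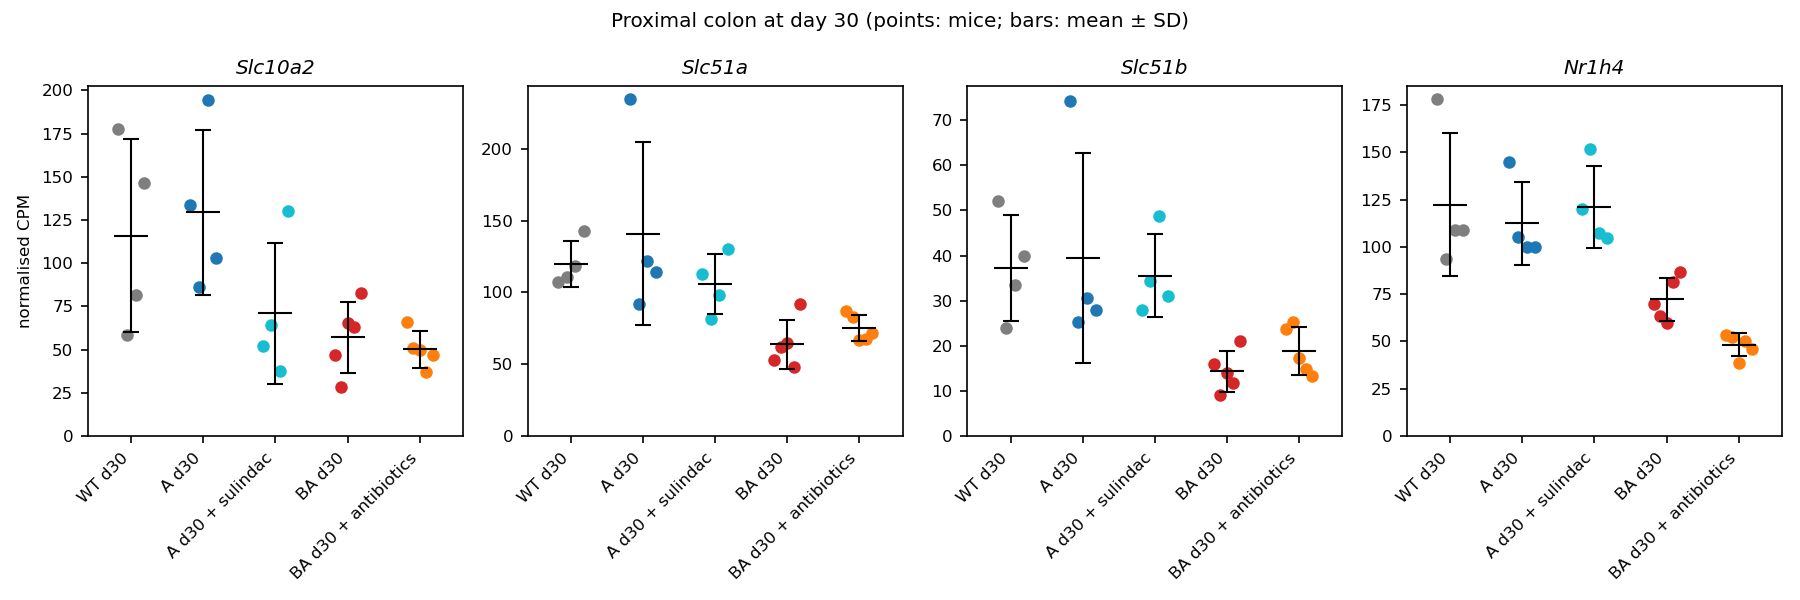
Normalised CPM of Slc10a2, Slc51a, Slc51b and Nr1h4 in the 5 colon groups at d30 on linear axes from 0, points for mice, with mean and SD. For Slc51a, Slc51b and Nr1h4 all 5 BA mice sit under all 4 WT mice, and antibiotic-treated BA mice sit lower still for Nr1h4.

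Whether the microbiota bears on these genes was addressed by comparing antibiotic-treated with untreated BA mice. With all libraries in the fit, Nr1h4 was the only gene called, and its level was further from that of WT. With antibiotics it was at 53.5, 52.4, 38.7, 50.2 and 46.1, under all 5 untreated BA mice, which is 1.496-fold lower (−0.58, SE 0.11, adjusted p = 0.00609). Slc51b was at 23.7, 25.2, 17.3, 14.8 and 13.4 with antibiotics, with a log2 difference of 0.41 (SE 0.24, adjusted p = 0.257) that did not pass the test, and Slc51a at 86.8, 83.1, 66.9, 67.6 and 71.4 (0.24, SE 0.15, adjusted p = 0.292). Slc10a2 was at 66.2, 51.1, 49.4, 36.7 and 46.6 (−0.18, SE 0.24, adjusted p = 0.635). Fabp6 was between 0.705 and 1.501 (0.51, SE 0.25, adjusted p = 0.189). Of the 5 genes tested, 1 was called lower and 0 higher, where 8.50% of 16680 genes were called lower and 4.53% higher. Without untreated BA library 5, the highest for Slc51a, that gene was called higher with antibiotics (0.40, adjusted p = 0.0396), so 2 of 5 were called.

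Of 10 genes known to respond to gut bacteria, 2 were called lower with antibiotics, where 8.50% of all genes tested were called lower, and 8 did not pass, with log2 differences above 0 for Retnlb (0.59) and Lcn2 (1.05). Duoxa2, the maturation factor of the epithelial oxidase DUOX2, was at 78.3 ± 51.9 untreated and 12.5 ± 4.63 with antibiotics (n = 5 each, −2.65, adjusted p = 0.00382), and Duox2 fell by 1.23 on the log2 scale (adjusted p = 0.0385). Epithelial marker sums were 22800 to 34540 with antibiotics, around those of untreated BA. Stroma and muscle sums were 1833 to 6321, wider than in untreated BA, with means of 4109 against 2439. Colonocyte sums were 17420 to 25630 with antibiotics and 24640 to 27950 untreated. Mean Slc26a3 was lower with antibiotics (266 against 477, without overlap) and mean Slc37a2 higher (15.5 against 4.48). The part of these differences in the Nr1h4 values was not tested.

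Antibiotic-treated BA colon was also set against WT d30, using the same 4 WT mice as the untreated comparison. The largest difference was again in Nr1h4, 2.54-fold lower (−1.34, SE 0.17, adjusted p = 0.000186), and no treated mouse reached the WT range. Slc10a2 was 2.31-fold lower (−1.21, SE 0.30, adjusted p = 0.00877), with treated mice between 36.7 and 66.2 and WT mice from 58.1. Slc51a was 1.59-fold lower (−0.67, SE 0.10, adjusted p = 0.000595) without overlap, and Slc51b 1.97-fold lower (−0.98, SE 0.24, adjusted p = 0.00936) with overlap, 2 treated mice at 23.7 and 25.2 against the lowest WT mouse at 23.95. Fabp6 gave 0.13 (SE 0.36, adjusted p = 0.793). In all, 4 of 5 were called lower and 0 higher, where 17.8% of 17569 genes were called lower and 21.8% higher, and no library left out in turn changed this count. Gpbar1 did not pass the low-count filter here and had between 4 and 12 reads per treated library and 1 to 3 per WT library. By DESeq2, and by edgeR without this filter, it was called higher, so 5 members were called.

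With loss of Alk5 alone, none of these genes passed the test against WT at d30. In A mice Slc10a2 was at 134, 86.2, 194 and 103 (log2 difference from WT 0.16, SE 0.35, adjusted p = 0.861). Slc51a was at 234, 92.1, 122 and 114 (0.24, SE 0.26, adjusted p = 0.71), Slc51b at 74.3, 25.3, 30.52 and 27.8 (0.09, SE 0.35, adjusted p = 0.929) and Nr1h4 at 145, 105, 99.8 and 99.8 (−0.11, SE 0.21, adjusted p = 0.836). The first A library was the highest for Slc51a, Slc51b and Nr1h4. Fabp6 was at 484, 0.671, 83.7 and 1.30, high in the same 2 mice whose libraries held small intestine reads, against at most 1.51 in WT. Its log2 difference of 7.12 (SE 1.81) was not called (adjusted p = 0.355), was called by DESeq2 (adjusted p = 0.00287) and by edgeR without the low-count filter (adjusted p = 0.014) or with all d30 groups in 1 fit (adjusted p = 0.0216), and was −0.04 (adjusted p = 0.981) without A libraries 1 and 3. None of 5 genes was called by edgeR fitted to the 2 groups with the filter, 1 (Fabp6) had an unadjusted p under 0.05 and 1 (Fabp6) was called by DESeq2, where 0.0960% of 17713 genes were called higher and 0.0452% lower.

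Sulindac in A mice gave no call either. Slc10a2 was at 51.8, 63.9, 37.7 and 130 (−0.70 from WT, SE 0.42, adjusted p = 0.604), and Slc51a at 113, 81.7, 97.8 and 131 (−0.17, SE 0.15, adjusted p = 0.716). Slc51b (27.8 to 48.7) and Nr1h4 (105 to 152) had log2 differences from WT of −0.06 (SE 0.24) and −0.01 (SE 0.21), with adjusted p of 0.944 and 0.993. Fabp6 was at 0.578, 2.71, 3.31 and 5.71, the only gene of the 5 with an unadjusted p under 0.05 (log2 difference 1.58, SE 0.59, adjusted p = 0.511). Against WT, edgeR and DESeq2 each called 0 of 5, where 0.0507% of 17742 genes were called higher and 0% lower. Against untreated A mice, both tools again called 0 of 5, where 0% of 17568 genes were called in either direction, and 2 genes had an unadjusted p under 0.05: Slc10a2 (−0.84, SE 0.38) and Fabp6 (−5.51, SE 1.68, or 1.63 without A libraries 1 and 3), both with an adjusted p of 1. The ranges of Slc10a2 in sulindac-treated and untreated A mice overlapped.

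**Figure D3:**
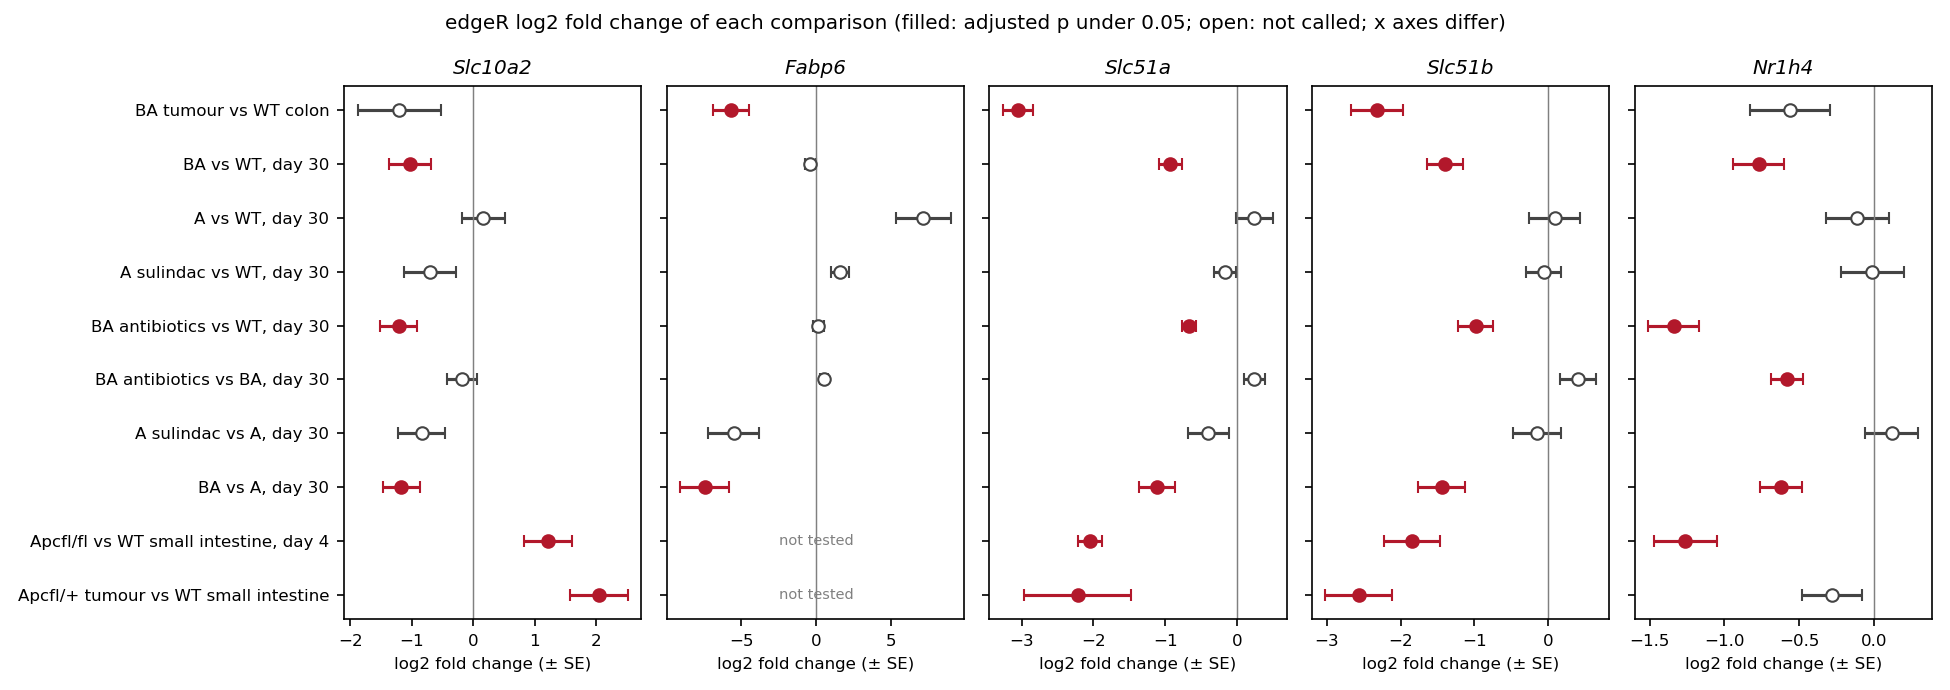
Log2 fold change with SE of Slc10a2, Fabp6, Slc51a, Slc51b and Nr1h4 in the 10 comparisons, filled where the adjusted p is under 0.05. Slc51a and Slc51b lie under 0 and are called in every comparison of BA or Apc-mutant tissue with its WT, and Slc10a2 is above 0 in both Apc comparisons.

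The addition of oncogenic Braf to Alk5 loss was read from BA against A mice at d30. All 5 genes tested were called lower in BA, where 23.6% of 17128 genes were called lower and 21.7% higher. Slc10a2 was 2.25-fold lower (−1.17, SE 0.30, adjusted p = 0.00796), with BA mice at 28.0 to 82.6 and A mice at 86.2 to 194. Slc51b was 2.71-fold lower (−1.44, SE 0.32, adjusted p = 0.00386), Slc51a 2.17-fold (−1.12, SE 0.25, adjusted p = 0.00433) and Nr1h4 1.54-fold (−0.62, SE 0.14, adjusted p = 0.00394), none with overlap. Fabp6 was 172-fold lower by the fit (−7.43, SE 1.63, adjusted p = 0.00361), but its ranges overlapped (0.555 to 1.05 in BA). It was high in 2 A mice, at 484 and 83.7 in A libraries 1 and 3. Without these libraries 3 of 5 were called: Slc51a (−0.68, adjusted p = 0.0227), Slc51b (−0.88, adjusted p = 0.0152) and Nr1h4 (−0.49, adjusted p = 0.0152), while Slc10a2 gave −0.72 (adjusted p = 0.0786) and Fabp6 −0.32 (adjusted p = 0.52).

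In BA tumours both subunits of the exporter fell. Slc51a was at 15.5, 11.4, 10.9 and 9.32 in the 4 tumours and at 108, 94.0 and 84.9 in WT colon, an 8.27-fold fall (−3.05, SE 0.21, adjusted p = 0.000252). Slc51b was at 6.82, 18.1, 11.6 and 7.54 against 61.0, 53.6 and 47.8, a 4.99-fold fall (−2.32, SE 0.35, adjusted p = 0.00462). Each was lower in every tumour than in every WT colon. The uptake gene Slc10a2 was split among tumours, at 9.35, 10.9, 56.4 and 60.7 against 123, 68.6 and 43.9, and its log2 difference of −1.20 (SE 0.68, adjusted p = 0.289) did not pass the test. Nr1h4 was at 56.6, 62.9, 109 and 76.1 against 130, 95.0 and 110 (−0.56, SE 0.27, adjusted p = 0.205).

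Fabp6 was at 0.452, 1.62, 0.510 and 0.162 in tumours and at 44.7, 0.706 and 43.9 in WT colon. It was called lower (−5.66, SE 1.19, adjusted p = 0.0166), although WT colon 2 lay inside the tumour range. The call was lost without WT colon 1 (−5.20, adjusted p = 0.0685) or WT colon 3 (−5.24, adjusted p = 0.0563). Fgf15 had 6, 0, 27 and 102 reads in the tumours and 0, 0 and 39 in WT colon (1.32, SE 1.53, adjusted p = 0.624). With BA tumour 2 and WT colon 3, the libraries with small intestine reads, left out, it was called higher (8.48, adjusted p = 0.0426), a fit against 2 WT libraries with no read. Gpbar1 was at 1.17, 0.861, 1.47 and 9.40 against 0.775, 0.235 and 1.04 (2.21, SE 0.93, adjusted p = 0.155). Summed macrophage markers, among them Csf1r and Cd68, ran from 294 to 738 in tumours and from 220 to 313 in WT colon, with 1 of 7 called higher, and their part in the Gpbar1 values was not tested. Nr0b2 had too few reads. Of 7 genes tested, 3 were called lower and 0 higher, where 5.71% of 19188 genes were called lower and 7.46% higher. The median log2 fold change was −1.20 for the 7 and 0.03 for all genes tested.

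Summed colonocyte markers were 1473 to 5744 in tumours and 14350 to 26850 in WT colon, and 3 of 7 were called lower, while the epithelial sums overlapped (11450 to 17790 against 13780 to 17020). Immune marker sums were 423 to 1247 in tumours and 248 to 262 in WT colon, with 4 of 5 called higher. Their part in the falls of Slc51a and Slc51b was not tested. A term for Gm13394 was also added to the fit. Gm13394 exceeded 10 CPM in 3 of 4 BA tumours and 0 of 3 WT colon libraries. The group difference in this fit thus rests on the remaining tumour and is no check over all 4. It gave log2 values of −3.05 for Slc51a, −1.57 for Slc51b and −4.20 for Fabp6.

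**Figure D4:**
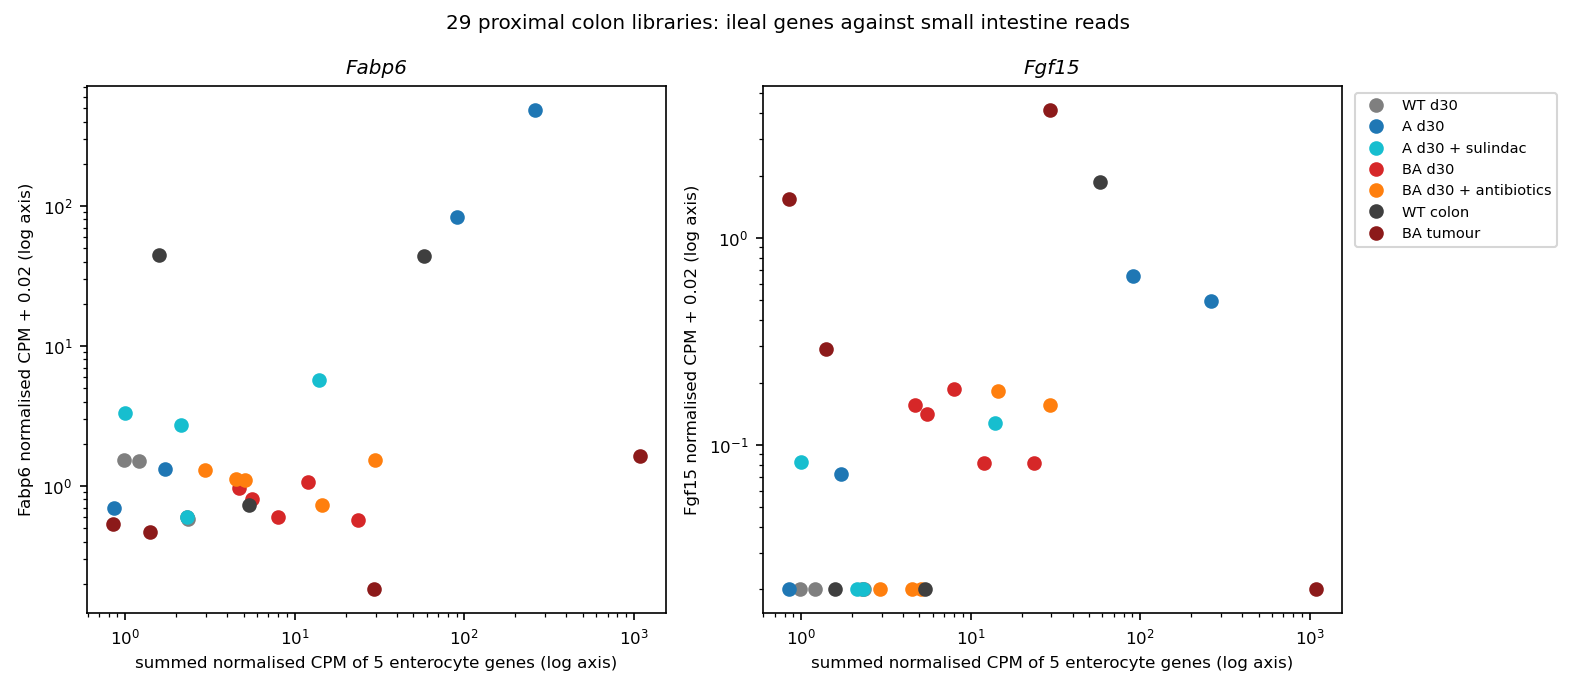
Fabp6 and Fgf15 against the summed normalised CPM of 5 enterocyte genes in the 29 colon libraries, log axes, coloured by group. A d30 libraries 1 and 3 are high on both axes for Fabp6, at 261 and 90.4 for the enterocyte sum, whereas BA tumour 2 has the highest enterocyte sum, 1086, with Fabp6 at 1.62.

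The colon libraries with ileal transcripts were not all those with small intestine reads. WT colon 1 held Fabp6 at 44.7 with an enterocyte sum of 1.58, WT colon 3 held 43.9 with 58.2, and BA tumour 2 held 1.62 with 1086. BA tumour 4, with the most Fgf15 reads (102), had a sum of 29.3 and Fabp6 at 0.162. The part of carried-over small intestine in these values was not tested.

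In the small intestine 4 days after Apc deletion, the exporter and FXR fell and the uptake gene rose from a low level. Slc51a ran from 32.1 (median 63.2) to 83.2 in 10 Apcfl/fl mice and from 205 (median 252) to 343 in 6 WT mice. It was 4.14-fold lower (−2.05, SE 0.17, adjusted p = 1.85e-07) without overlap. Slc51b ran from 12.2 (median 22.8) to 68.1 against 62.9 (median 100.5) to 206, a 3.59-fold fall (−1.84, SE 0.38, adjusted p = 0.000588) with overlap. Nr1h4 ran from 9.64 (median 15.8) to 23.1 against 23.0 (median 37.9) to 59.5, a 2.39-fold fall (−1.26, SE 0.21, adjusted p = 9.51e-05), and the ranges touched. Slc10a2 ran from 1.21 (median 2.90) to 4.78 against 0.586 (median 0.886) to 2.64, a 2.34-fold rise (1.22, SE 0.39, adjusted p = 0.0141) with overlap. Nr0b2 ran from 0 (median 1.43) to 2.23 against 1.15 to 3.22 (−0.55, SE 0.32, adjusted p = 0.149). Of 5 genes tested, 3 were called lower and 1 higher, where 26.7% of 17536 genes were called lower and 27.5% higher. Leaving out any 1 library kept the count at 4, as did leaving out libraries 1 and 8 together (Slc51b then −2.02, adjusted p = 0.000201).

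Gm13394 was over 10 CPM in 6 of 10 Apcfl/fl and 3 of 6 WT day 4 libraries, so the comparison could be made within each class. Under 10 CPM, 5 of 5 were called: Slc51b at −3.17 (adjusted p = 8.37e-06), Slc51a at −2.13 (adjusted p = 5.43e-06), Nr1h4 at −1.81 (adjusted p = 6.36e-05), Nr0b2 at −1.31 (adjusted p = 0.0229) and Slc10a2 at 1.86 (adjusted p = 0.00551). Over 10 CPM, 2 of 5 were called, Slc51a at −1.87 (adjusted p = 0.00101) and Nr1h4 at −0.87 (adjusted p = 0.0326), with Slc51b at −0.95 (adjusted p = 0.132), Slc10a2 at 0.72 (adjusted p = 0.288) and Nr0b2 at −0.06 (adjusted p = 0.916). Over all genes tested, 59.28% of 17208 were called under 10 CPM and 30.41% of 18055 over it. Whether the 2 classes differ was not tested. Summed markers of the upper small intestine were 2120 to 5395 in Apcfl/fl and 7995 to 14990 in WT, with 4 of 7 called lower and 2 higher, and epithelial sums were 9497 to 12170 against 12200 to 16580. Their part in these falls was not tested.

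Apcfl/+ tumours of the small intestine had the same directions for the exporter and for the uptake gene. Slc51b was at 9.03, 2.04, 11.3, 6.82 and 4.10 in the tumours and at 42.1, 50.2 and 35.6 in WT small intestine (5.94-fold lower, −2.57, SE 0.45, adjusted p = 0.00133). Slc51a was at 27.9, 0.743, 33.04, 27.4 and 25.0 against 124, 113 and 108 (4.67-fold lower, −2.22, SE 0.74, adjusted p = 0.027). Slc10a2 was at 8.19, 4.18, 4.99, 6.20 and 8.95 against 0.670, 1.45 and 2.97 (4.10-fold higher, 2.04, SE 0.47, adjusted p = 0.0054). All 3 were without overlap. Nr1h4 did not pass the test, at 26.1, 15.6, 23.5, 19.4 and 26.6 against 23.0, 34.3 and 29.8 (−0.28, SE 0.20, adjusted p = 0.258). Nr0b2 was at 0.235, 0, 0.580, 1.11 and 0.785 against 1.55, 1.12 and 1.30, lower in every tumour but not called (−1.15, SE 0.70, adjusted p = 0.179), and Gpbar1 at 0.659, 0.325, 0.401, 0.221 and 1.54 against 0.825, 0.223 and 0.324 (0.59, SE 0.70, adjusted p = 0.486). Of 6 genes tested, 2 were called lower and 1 higher, where 30.09% of 20567 genes were called lower and 31.4% higher.

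Without tumour 2, which carried the colonocyte marker Car1, the same 3 genes were called. They were Slc51a at −1.91 (adjusted p = 3.4e-06), Slc51b at −2.34 (adjusted p = 0.000167) and Slc10a2 at 2.16 (adjusted p = 0.00213). With tumour 2 in the fit, the call of Slc51a was lost when any WT library was left out (adjusted p = 0.0613 to 0.0682). Summed markers of the lower small intestine averaged 43.5 in tumours and 985 in WT, with 4 of 5 called lower and 1 higher. Cubn alone averaged 889 in WT, and the part of these markers in these differences was not tested.

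**Figure D5:**
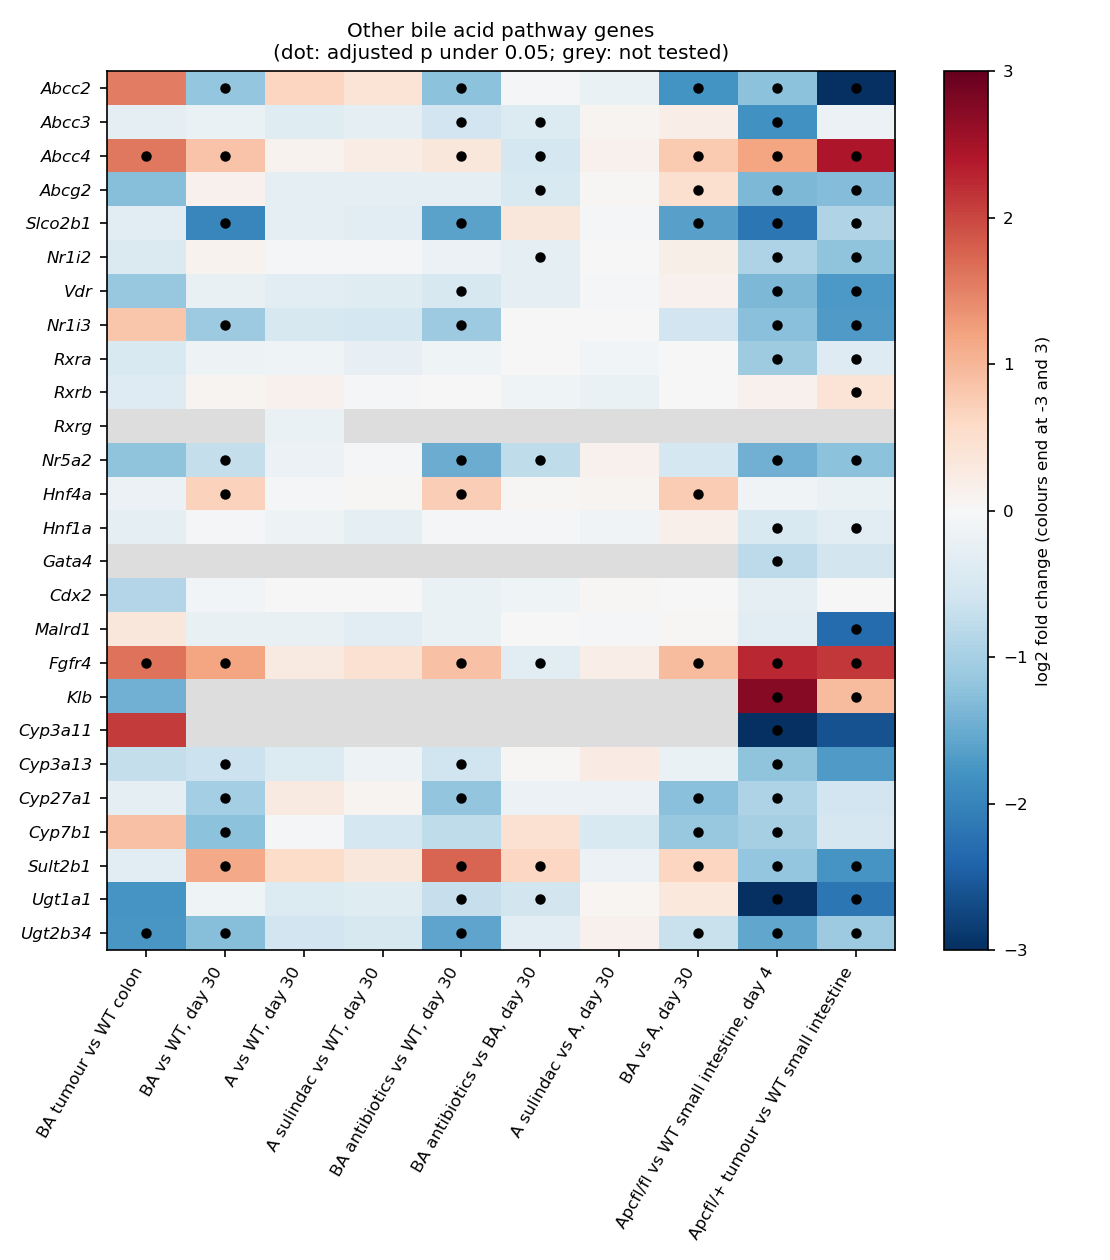
Log2 fold change of 26 further bile acid pathway genes in the 10 comparisons as a colour scale, dots where called and grey where not tested. Fgfr4 and Abcc4 are called higher in BA tumours, in BA d30 colon and in both Apc comparisons, and the day 4 Apc column holds the most genes called lower, 18 of 25.

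Further genes of bile acid transport, conjugation and sensing were read as a list of 26. In BA d30 against WT 22 were tested, 4 called higher and 8 lower, where 25.8% and 29.3% of all genes tested were called. The median log2 fold change of the list was −0.18, and −0.03 for all genes tested. Fgfr4, the receptor for Fgf15, was higher (1.19, adjusted p = 2.72e-05), as were the sulfotransferase Sult2b1 (1.13, adjusted p = 0.000187) and the basolateral efflux pump Abcc4 (0.86, adjusted p = 0.000105). Lower were the uptake transporter Slco2b1 (−1.95, adjusted p = 1.06e-07), the glucuronosyltransferase Ugt2b34 (−1.28, adjusted p = 2.05e-06) and the oxysterol hydroxylase Cyp7b1 (−1.23, adjusted p = 0.000264). In BA tumours 24 were tested, with 2 called higher, Fgfr4 (1.64, adjusted p = 0.00523) and Abcc4 (1.59, adjusted p = 0.00332), and 1 lower, Ugt2b34 (−1.74, adjusted p = 0.00921), where 7.46% and 5.71% of all genes tested were called.

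With antibiotics, against untreated BA, 1 of 22 list genes was called higher, Sult2b1 (0.61, adjusted p = 0.00725), and 7 lower, led by Nr5a2, the nuclear receptor LRH-1 (−0.76, adjusted p = 0.0271), Ugt1a1 (−0.56, adjusted p = 0.0122) and Abcc4 (−0.52, adjusted p = 0.0195). Over all genes tested 4.53% were called higher and 8.50% lower. The median of the list was −0.12, and 0.03 over all genes tested. Against WT, antibiotic-treated BA had 4 of 22 higher and 10 lower, where 21.8% and 17.8% of all genes tested were called. In BA against A, 5 of 22 were higher and 5 lower, close to the 21.7% and 23.6% of all genes tested. In A against WT edgeR called 0 of 23, with 3 at an unadjusted p under 0.05, in sulindac-treated A against WT 0 of 22, with 5, and in sulindac-treated against untreated A 0 of 22, with 0.

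After Apc deletion, 3 of 25 were called higher and 18 lower, where 27.5% and 26.7% of all genes tested were called. The median was −1.07, where all genes tested had −0.00. Klb, the co-receptor of Fgfr4, was higher (2.72, adjusted p = 0.000327), as were Fgfr4 (2.25, adjusted p = 3.84e-05) and Abcc4 (1.18, adjusted p = 0.00161), while the steroid and bile acid hydroxylase Cyp3a11 fell by 4.69 (adjusted p = 6.08e-06) and the glucuronosyltransferase Ugt1a1 fell by 4.65 on the log2 scale (adjusted p = 1.27e-08). Ugt1a1 shares its last exons with the other Ugt1a genes, so its counts are uncertain. In Apcfl/+ tumours 4 of 25 were higher and 13 lower, where 31.4% and 30.09% of all genes tested were called, with Abcc4 (2.42, adjusted p = 4.5e-05), Fgfr4 (2.13, adjusted p = 5.93e-05) and Klb (0.94, adjusted p = 0.0272) again the 3 largest rises, and the apical efflux pump Abcc2 the largest fall (−3.24, adjusted p = 5.79e-05).

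The genes whose levels ran most like these across libraries differed by tissue. Over the 29 colon libraries and 16291 genes, Slc51a was most like Mpst, Fahd1 and Ccs (Pearson r of log2 levels 0.95 each), and Slc51b most like Fuom (0.92), Sdhb and Ndufb10 (0.90 each). Nr1h4 was most like Apol10a (0.90) and Slc9a3, the apical sodium exchanger (0.88), whereas the highest r for Slc10a2 was 0.77, with Tmem18, and for Fabp6 0.78, with Erich4. Over the 24 small intestine libraries and 16524 genes, Slc51a was most like Slc7a9, an apical amino acid transporter, Gm8909 and H2-Q2 (0.98 each), Slc51b like Tmem238l, Pmm2 and Gpr160 (0.95 each), Nr1h4 like Apobec1 (0.88), Nr0b2 like Ubfd1 (0.92) and Slc10a2 like Cyp20a1 and Prss12 (0.86 each). The libraries share tissue, group and depth differences, so these values are descriptions without a test.

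Overlapping gene models limit some of these counts. Of all 36-base words, the read length, in the exons of each gene, 22.9% in Fgf15 also lay in other genes, most of them in Gm26793, 16.7% in Slc51a (Pcyt1a), 8.46% in Slc51b (Rasl12) and 2.37% in Slc10a2, and 0% in Fabp6, Nr1h4, Gpbar1 and Nr0b2. Whether counting used strand, and how multiply aligned reads were counted, is not given in the sources used here.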

How the data were processed

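RNA from 53 mouse intestinal tissues was sequenced with 36-base paired reads. The authors aligned the reads to GRCm38 and deposited a table of raw counts per gene. The submitters' processing notes name FastQC 0.11.8, Trim Galore 0.6.4, HISAT2 2.1.0 and featureCounts 1.6.4. Gene symbols were found for 55240 of the 55421 IDs in the reference annotation, and 181 IDs had none. Groups and replicate numbers came from the sample labels. The labels number replicates within a group without naming mice, so p-values measure the spread between these samples.

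Each comparison was fitted to the counts of its 2 groups with edgeR 4.0.16 in R 4.3.3 (glmQLFit and glmQLFTest after filterByExpr and TMM), with Benjamini-Hochberg adjustment over all genes tested and a threshold of 0.05. Fold changes come from these fits, and levels from TMM scaling over all libraries. Total counts per library ran from 516985 to 32824795. The test was run on simulated data with 200 changed genes. Alternatives were RLE scaling, DESeq2 1.42.0, no low-count filter, a replicate block, all d30 groups in 1 fit and each replicate left out in turn. Leaving out libraries with small intestine reads, Apcfl/fl libraries 1 and 8 together, and terms or classes by Gm13394, were added after seeing the data, as was the list of 5 enterocyte genes. Some genes are not reported here and were left out of the marker lists.

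The members and gene lists were chosen with earlier results of these data known. All 8 members are named. From the pathway and liver lists a comparison names at most the 3 largest and 3 smallest log2 fold changes among called genes with a mean of at least 1 CPM in either group. Genes most like a member were ranked by Pearson r of log2(CPM + 0.1) among genes with a mean of at least 1 CPM. Promoters were RefSeq sequences, and motifs and mismatch limits were chosen after looking at them. Tables and plots were made in Python 3.11.15 with pandas 2.3.3 and matplotlib 3.10.9.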

Additional observations from a re-analysis of the deposited data

Results flagged for a closer look

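In 7 of 58 gene and group sets of 4 to 10 libraries, 1 library lay apart from the rest by Dixon's test. The limits used give about 1 in 20 for independent, normally distributed values. Levels were not log-transformed and some sets share a library, so the count cannot be set against that rate. Fabp6 was apart at 1.40 in 1 WT small intestine library at day 4, and at 0.929 in Apcfl/+ tumour 2. In the same tumour, whose Gata4 and Car1 levels go against its small intestine label, Slc51a was apart at 0.743. In A d30 library 1, which held small intestine reads, Slc51b was apart at 74.3 and Nr1h4 at 145. Gpbar1 was apart at 1.44 in Apcfl/fl library 5 and at 9.40 in BA tumour 4.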

How the results depend on the processing

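RLE scaling changed no count of the 8 genes called. In A against WT, 0 genes were called as reported and 1, Fabp6, under DESeq2 and under edgeR without the low-count filter and with all d30 groups in 1 fit. In antibiotic-treated BA against WT, 5 in place of 4 were called under DESeq2 and without the filter, with Gpbar1 added as higher. Without the filter, Gpbar1 was also called higher in BA tumours, and Fgf15 in BA d30 against WT. In BA against A, 3 in place of 5 were called without the libraries with small intestine reads. In antibiotic-treated against untreated BA, 1 to 2 were called when libraries were left out in turn. After Apc deletion, 2 in place of 4 were called within libraries over 10 CPM of Gm13394. The causes of these changes were not tested.

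Equal replicate numbers did not pair the libraries: correlations of same-numbered deviations ran from −0.44 to 0.23, and in no comparison were all over 0.1. With the replicate block, 1 in place of 3 genes was called in Apcfl/+ tumours and 2 in place of 3 in BA tumours, and no other count of called members changed. Over all genes, the block gave 848 calls in place of 2527 in BA tumours, 2 in place of 9 in sulindac-treated A against WT, 1 in place of 0 in sulindac-treated against untreated A, 1284 in place of 2172 in antibiotic-treated against untreated BA, and 8211 in place of 12650 in Apcfl/+ tumours. With the block Slc51b in A against WT was −0.00 and Nr1h4 in sulindac-treated A against WT 0.02.

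DESeq2 called 132 in place of 25 genes in A against WT, 108 in place of 9 in sulindac-treated A against WT and 7 in place of 0 in sulindac-treated against untreated A. Without the filter these were 72, 24 and 1. All d30 groups in 1 fit gave 29 in sulindac-treated A against WT and 1074 in place of 2172 in antibiotic-treated against untreated BA. A against WT without A libraries 1 and 3 gave 16, and the day 4 comparison within libraries over 10 CPM of Gm13394 gave 5490 in place of 9504.

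Signs turned among uncalled values. Without A libraries 1 and 3, A against WT gave −0.29 for Slc10a2, −0.04 for Fabp6, −0.21 for Slc51a and −0.48 for Slc51b, and sulindac-treated against untreated A gave 1.63 for Fabp6, 0.04 for Slc51a and 0.41 for Slc51b. Fgf15 in BA tumours was −6.66 with a term for Gm13394, a fit that rests on the tumour under 10 CPM of Gm13394. Leaving out each replicate, log2 values in A against WT ran from −0.10 to 0.45 for Slc10a2, −0.12 to 0.39 for Slc51a, −0.41 to 0.29 for Slc51b and −0.26 to 0.12 for Nr1h4. In sulindac-treated A against WT they ran from −0.26 to 0.14 for Slc51b and −0.13 to 0.23 for Nr1h4, in antibiotic-treated BA against WT from −0.09 to 0.37 for Fabp6, and in sulindac-treated against untreated A from −0.32 to 0.35 for Slc51b and −0.03 to 0.26 for Nr1h4. Depth limits Nr0b2, Fgf15 and Gpbar1, which had too few reads to be tested in most comparisons.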

Other observations

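Of 7 genes of bile acid synthesis and handling in the liver, the bile salt export pump Abcb11 was higher in BA colon. It was at 4.73 ± 1.07 normalised CPM in BA d30 (n = 5), 7.47 ± 3.02 with antibiotics (n = 5) and 1.64 ± 0.86 in BA tumours (n = 4), against 0.153 ± 0.0429 in WT d30 (n = 4) and 0.125 ± 0.138 in WT colon (n = 3). The log2 fold changes were 4.87 (SE 0.28, adjusted p = 1.96e-07), 5.56 (SE 0.41, adjusted p = 5.08e-06) and 3.70 (SE 0.77, adjusted p = 0.0155), each without overlap. In A d30 it was at 0.255 ± 0.117. Of 5 hepatocyte markers, Cyp7a1, the rate-limiting enzyme of bile acid synthesis, was at 0 in every library of these BA and WT d30 groups, whereas serum albumin, Alb, was at 18.6 ± 16.2 in BA d30 and 2.52 ± 1.98 with antibiotics against 0.155 ± 0.184 in WT d30, and at 0.147 ± 0.129 in BA tumours. The sum of the list was 25.0 to 59.7 in BA d30, 9.89 to 26.0 with antibiotics, 2.07 to 7.54 in BA tumours and 5.77 to 32.0 in WT d30. Against WT d30, 1 of 2 tested was called higher in BA d30 and 2 of 3 with antibiotics, where 25.8% and 21.8% of all genes tested were. The part of these genes in the Abcb11 values was not tested. In Apcfl/+ tumours the bile acid reductase Akr1d1 was at 6.44 ± 5.16 (n = 5) against 0.125 ± 0.0823 in WT (n = 3, 5.72, adjusted p = 0.0105) with overlapping ranges, and the hepatic uptake transporter Slc10a1 was lower, at 2.85 against 10.1 (−1.73, adjusted p = 0.00011). In the same tumours the hepatocyte sum was 40.4 to 99.3 against 2.12 to 4.38 in WT, with Alb at 31.7 ± 13.5 against 0.268 ± 0.286, Ttr at 26.5 ± 17.6 against 2.25 ± 0.987 and Cyp7a1 at 0 in both groups. Of these markers, 2 of 3 tested were called higher, where 31.4% of all genes tested were. The part of this in the Akr1d1 values was not tested.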
